A study of Mus musculus with 4 samples.

Results

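The genes that make, destroy and read retinoic acid were examined in primary mouse liver sinusoidal endothelial cells (LSECs). These are the 2 retinoic acid hydroxylases *Cyp26a1* and *Cyp26b1*, the 2 retinaldehyde dehydrogenases *Aldh1a1* and *Aldh1a2*, the 3 retinoic acid receptors *Rara*, *Rarb* and *Rarg*, and the 2 retinoid X receptors *Rxra* and *Rxrb*. They are 9 of the 18373 genes of the deposited table and were chosen by gene symbol. The cells came from the livers of 8-week-old Balb/c mice by perfusion, a density gradient and beads against CD146, and were grown on collagen-coated plates. One group of 2 libraries (NC) received a control siRNA and the other group of 2 libraries (siAirn) an siRNA against the long noncoding RNA *Airn*, each for 48 h. All 4 libraries therefore come from cultured and transfected cells of 1 strain, with no untransfected group. The labels name siAirn1 for both libraries of the second group, whereas the treatment text speaks of separate siRNAs, so whether both received the same siRNA is not settled by these sources. The labels call the libraries biological replicates without saying whether they came from separate animals or cultures, so the p-values measure the spread between these samples, which may be technical. The comparison asks how RNA levels differ after the *Airn* siRNA.

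Retinoic acid is made from retinol in steps. Dehydrogenases of the Rdh family oxidise retinol to retinaldehyde, *Dhrs3* reduces retinaldehyde back to retinol, and enzymes of the Aldh1a family oxidise retinaldehyde irreversibly to retinoic acid. Enzymes of the Cyp26 family hydroxylate retinoic acid and so end its action, and thereby shape which cells are exposed to it. Retinoic acid binds a retinoic acid receptor (RAR) that sits on DNA as a heterodimer with a retinoid X receptor (RXR). Without ligand the pair recruits corepressors, and with ligand it recruits coactivators. In the liver, retinyl esters are stored chiefly in stellate cells, which lie beside the LSECs.

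A DNA sequence that RAR and RXR pairs are known to bind is the DR5 element, a direct repeat of a hexamer with a spacer of 5 bases. Windows of 300 bases around the RefSeq starts of all 9 genes (GRCm38.p6, 250 bases before the start and 50 after it, 16 windows in all) were searched on both strands for hexamers spelled NGNTCA, with an adenine or guanine in the first place and a guanine or thymine in the third. A DR5 was present near the starts of *Rarb* and *Cyp26a1*, and in 0.0974% of 32851 windows of all genes. Both stretches are shown because they are the only ones of the 16 windows that hold the element. They are written 5′ to 3′ on the strand of the gene, with the hexamers in capitals. The *Rarb* stretch is chr14:16575507-16575535 on the minus strand, and its element lies 53 to 37 bases before the RefSeq start. In GENCODE M21 the element is overlapped by an exon of 2 *Rarb* transcripts, which therefore start upstream of that RefSeq start. The *Cyp26a1* stretch is chr19:37697770-37697798 on the plus strand, and its element, which reads as a direct repeat on the opposite strand, lies 32 to 16 bases before the start.
Rarb: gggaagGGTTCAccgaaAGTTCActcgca
Cyp26a1: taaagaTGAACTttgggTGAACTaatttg
No DR5 was found in these windows for the other 7 members. Repeats of the same hexamers with a spacer of 2 bases (DR2, 0.268% of windows) or 1 base (DR1, 0.222%) were found in none of the 9. The search describes letters in these windows and says nothing about binding.

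Library totals ranged from 17308382 to 18371959 estimated counts, and 3 counts, the limit set by a count of 0, correspond to 0.166 to 0.175 CPM, that is, counts scaled to a library of standard size. Of the LSEC markers, *Oit3* had a mean of 337.2 FPKM (a level scaled to transcript length and sequencing depth) in NC, *Stab2* had 79.2 and *Lyve1* had 88.7, and none of the 12 LSEC markers in the table was at 0. RNA of other liver cells was present too, with *Alb* of hepatocytes at a mean of 288.2 FPKM and *Tagln* of contractile mesenchymal cells at 452.0 FPKM in NC. These were the most abundant markers of their lists. Others lay far lower in NC, such as *Cyp2e1* of hepatocytes at 1.36 FPKM and *Lrat* of stellate cells at 1.09 FPKM. *Airn* itself had 7 and 3 counts in NC and 11 and 9 counts in siAirn, below the filter for testing. Its ratio of siAirn to NC was 1.97, with an exact 95% interval of 0.878 to 4.70 that covers counting error only. Both siAirn libraries had more *Airn* counts than both NC libraries, so these counts show no loss of *Airn* RNA. At so few counts, and with no spread between samples in the interval, they do not check the labels. The groups below are those the labels give.

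*Cyp26b1* was by far the most abundant of the 9 genes, at 377.96 and 330.91 FPKM in NC and 287.84 and 227.31 FPKM in siAirn. It ranked 209th and 255th of 18373 genes by FPKM in the NC libraries and 264th and 348th in the siAirn libraries. A middle tier of *Rarg*, *Rarb*, *Rxra* and *Aldh1a1* followed, with NC means between 27.1 and 32.3 FPKM. The mean of *Cyp26b1* in NC was 11.0 times that of *Rarg*, the next gene. *Rara* stood lower, at a mean of 12.2 FPKM in NC. *Cyp26a1*, *Rxrb* and *Aldh1a2* were close to the bottom, at means of 2.17, 2.13 and 0.330 FPKM.

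Within the middle tier of NC, the ranges of *Rarg*, *Rarb*, *Rxra* and *Aldh1a1* each overlapped that of the next gene in the order. Of genes farther apart, *Rarg* (31.32 to 33.24 FPKM) lay above *Rxra* (29.43 to 30.85 FPKM) without overlap. The ranges of *Cyp26a1* and *Rxrb* also overlapped. In siAirn the tier read *Rarb*, *Rxra*, *Rarg* and *Aldh1a1*. The range of *Rarb* (28.48 to 34.00 FPKM) overlapped that of *Rxra* (28.23 to 29.12 FPKM), and the range of *Aldh1a1* (21.19 to 30.50 FPKM) took in that of *Rarg* (27.13 to 27.94 FPKM), which lay just under *Rxra*.

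**Figure D1:**
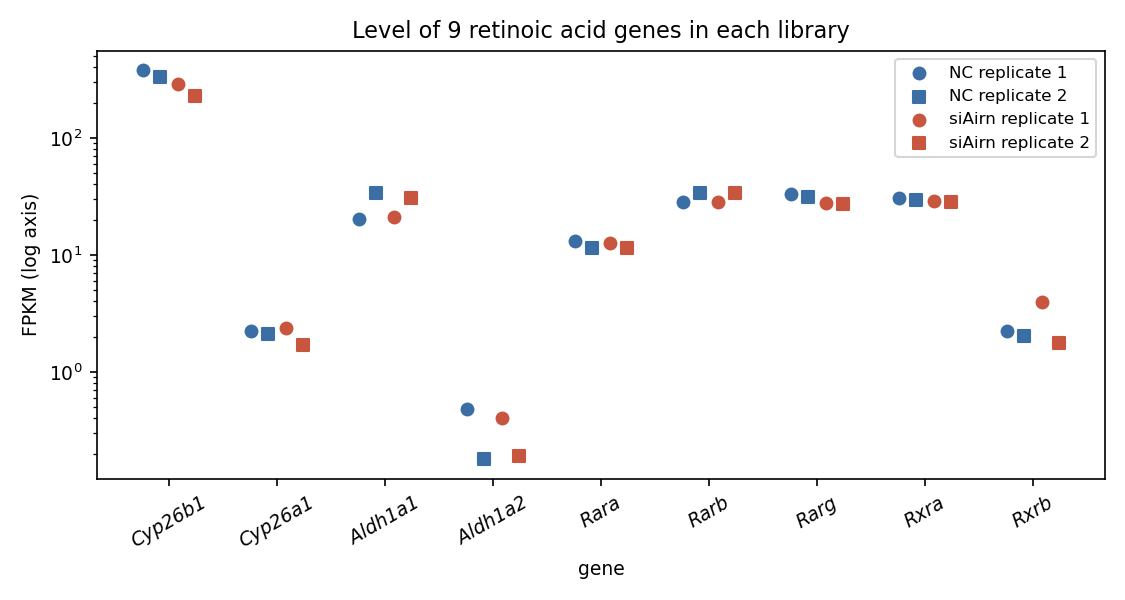
FPKM of the 9 genes (log axis) in each library, with 1 point per library, NC in blue and siAirn in red, replicate 1 as circles and replicate 2 as squares. *Cyp26b1* lies between 227.31 and 377.96 FPKM in all 4 libraries, and *Aldh1a2* between 0.18 and 0.48 FPKM.

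Comparing the groups, 2 of the 9 passed an adjusted p of 0.05, and both, *Cyp26b1* and *Rarg*, were lower in siAirn. Among the 13628 genes tested, 16.8% reached that threshold in either direction and 8.56% did so with a lower level in siAirn, so 2 of 9 is close to what the table holds at large. The threshold that the study states, a fold change over 1.4 with an unadjusted p under 0.05, was passed by 1 member, *Cyp26b1*, beside 9.96% of all genes tested and 4.72% that passed it downwards. The estimate was below 0 for 8 of the 9 members and for 49.9% of all genes. The median log2 fold change was -0.10 over the members and 0.00 over all genes. All 9 passed the filter on low counts. The 2 groups did not overlap in CPM for 3 members, *Cyp26b1*, *Rarg* and *Rxra*, and for 62.7% of all genes tested.

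**Figure D2:**
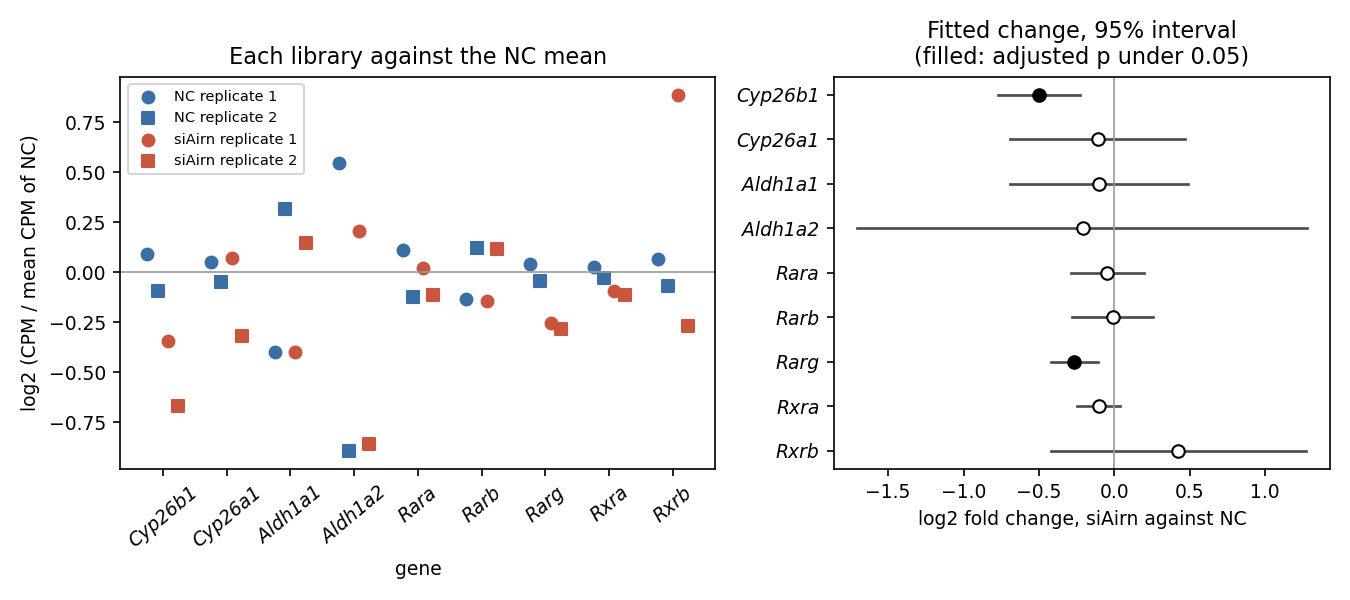
Left, log2 ratio of CPM in each library to the mean CPM of NC for the 9 genes, with 1 point per library; right, fitted log2 fold change of siAirn against NC with its 95% interval, filled where the adjusted p is under 0.05. Both siAirn points of *Cyp26b1* and of *Rarg* lie below both NC points, and only the intervals of these 2 genes, among the 9, stay below 0.

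*Cyp26b1* encodes a retinoic acid hydroxylase and spans chr6:84571414-84593908 on the minus strand in GRCm38. It had 1754.7 and 1545.0 CPM in NC and 1298.1 and 1036.5 CPM in siAirn. Both siAirn libraries lay below both NC libraries, and siAirn replicate 2 was the lowest. The means were 1650 ± 148 CPM in NC and 1167 ± 185 CPM in siAirn (SD, n = 2 each). The log2 fold change was -0.50 (SE 0.11, 95% interval -0.77 to -0.23, adjusted p = 0.0294), a level in siAirn of 0.708 times that in NC. The fold of 1.41 passes the stated threshold of 1.4 by a narrow margin. *Cyp26b1* took 0.174% and 0.152% of all counts in NC and 0.132% and 0.104% in siAirn.

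The direction for *Cyp26b1* was the same under all 14 other ways of processing, with log2 fold changes from -0.67 to -0.35. The adjusted p was under 0.05 in 9 of the 14 and ranged from 6.23e-05 to 0.157. Without NC replicate 1 the change was -0.41 (unadjusted p = 0.0310 and adjusted p = 0.157 by edgeR) and without NC replicate 2 it was -0.59 (unadjusted p = 0.00726 and adjusted p = 0.120). These 2 fits called 40 of 13986 and 0 of 13913 genes in all, while 3506 and 3106 genes had an unadjusted p under 0.05, so the lost call is no result about *Cyp26b1* itself. The adjusted p was also above 0.05 with limma on FPKM (0.0566 with a pseudocount of 1 and 0.0571 with 0.1), and when GC content and transcript length were corrected for (0.0592).

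The genes whose pattern over the 4 libraries was most like that of *Cyp26b1* were found by the distance between centred log2 CPM values over the 9344 genes whose mean level reached 10 CPM. The 5 nearest were *Slc24a5* (distance 0.0435), *Hsd3b7* (0.0511), *Pde2a* (0.0525), *Gps2* (0.0541) and *Pecam1* (0.0552). *Pecam1*, an adhesion molecule of all endothelial cells, had 1639.0 and 1499.0 CPM in NC and 1195.2 and 977.0 CPM in siAirn. 4 libraries in 2 groups give little to tell genes apart, and likeness here is a description of level alone.

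*Cyp26a1*, the other hydroxylase of the 9, was scarce. It spans chr19:37697798-37701536 on the plus strand. It had 3.44 and 3.21 CPM in NC (59 and 58 counts) and 3.49 and 2.66 CPM in siAirn (63 and 47 counts). The groups overlapped, with siAirn replicate 1 the highest and siAirn replicate 2 the lowest. Its log2 fold change came to -0.11 (SE 0.25, 95% interval -0.69 to 0.47, adjusted p = 0.782). This interval takes in a fall as large as that of *Cyp26b1*. In FPKM, *Cyp26b1* exceeded *Cyp26a1* by 169.5 and 156.8 times in NC and by 122.5 and 134.5 times in siAirn. *Cyp26c1*, the third hydroxylase of the family, had 2 counts over both NC libraries and 1 count over both siAirn libraries.

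Among the enzymes that make retinoic acid, *Aldh1a1* was the only abundant one. It spans chr19:20492715-20643465 on the plus strand. It had 40.2 and 66.1 CPM in NC and 40.3 and 58.7 CPM in siAirn. Replicate 2 was the higher library in each group, and the groups overlapped almost fully. The difference between replicates, 0.72 on the log2 scale in NC and 0.54 in siAirn, was several times the fitted change of -0.10 (SE 0.25, 95% interval -0.69 to 0.49, adjusted p = 0.802). *Aldh1a1* is also strongly expressed in hepatocytes. The summed CPM of 14 hepatocyte markers was likewise higher in replicate 2 of each group. That sum was 621.2 and 794.8 in NC and 863.3 and 1126.6 in siAirn. Most of it was *Alb*, at 496.6 and 637.6 CPM in NC and 704.7 and 900.2 CPM in siAirn. The part of hepatocyte RNA in the level of *Aldh1a1* was not tested. In GENCODE M21, 3.06% of its 50-base windows also occur in *Aldh1a7*, a near copy, which had 6 to 11 counts per library.

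*Aldh1a2* (chr9:71215789-71296243, plus strand) was at the edge of detection. It had 18 and 7 counts in NC and 15 and 7 counts in siAirn, or 0.387 to 1.05 CPM. The change on the log2 scale was -0.21 with a 95% interval of -1.71 to 1.28 (adjusted p = 0.843), so a difference was not detectable at this depth. *Aldh1a3* had 3 to 10 counts per library and did not pass the filter. *Aldh8a1*, which also failed the filter and is named after its values were seen, had 0 and 2 counts in NC and 10 and 6 counts in siAirn. Its ratio of siAirn to NC was 7.86, with an exact 95% interval of 1.85 to 70.5 for counting error only. The FPKM of *Cyp26b1* was 18.6 and 9.79 times that of *Aldh1a1* in NC and 13.6 and 7.45 times in siAirn. That ratio differed more between replicates of a group than between the groups.

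Of the 3 retinoic acid receptors, *Rarg* was lower in siAirn and no difference was detected for *Rara* and *Rarb*. *Rarg* spans chr15:102234938-102257517 on the minus strand. It had 91.0 and 85.8 CPM in NC and 74.2 and 72.6 CPM in siAirn. Replicates lay close together and the groups did not overlap. The means were 88.4 ± 3.63 CPM in NC and 73.4 ± 1.17 CPM in siAirn (SD, n = 2 each). The log2 fold change was -0.27 (SE 0.07, 95% interval -0.42 to -0.11, adjusted p = 0.0350), which is 0.830 times the NC level. That change did not pass the fold threshold of the study. The direction held in all 14 other ways of processing, from -0.31 to -0.12, but the adjusted p was under 0.05 in only 5 of them. It was 0.0816 by DESeq2, 0.0555 when length was corrected for and 0.259 when GC content was corrected for as well, where the change was -0.12. Leaving out any single library also took it above 0.05, with 0.162 and 0.127 without NC replicates 1 and 2, the fits in which almost no gene was called, and 0.0655 and 0.119 without siAirn replicates 1 and 2.

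*Rarb* (chr14:16430839-16819156, minus strand) had 81.9 and 97.7 CPM in NC and 81.2 and 97.3 CPM in siAirn. Replicate 2 was higher in both groups by about the same amount, and the groups overlapped. Its log2 fold change was -0.01 (SE 0.11, 95% interval -0.28 to 0.26, adjusted p = 0.964). The level of *Rarb* is uncertain, because 38.37% of its exonic bases in GENCODE M21 lie under exons of *Gm48162* and *Top2b* on the other strand, and whether the counting used strand is not given in the sources used here. *Top2b*, a DNA topoisomerase, had 102.1 and 103.9 CPM in NC and 129.9 and 113.3 CPM in siAirn.

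*Rara* (chr11:98927818-98974942, plus strand) had 41.2 and 35.0 CPM in NC and 38.6 and 35.2 CPM in siAirn, with overlapping groups. The fitted change was -0.05 on the log2 scale (SE 0.10, 95% interval -0.29 to 0.20, adjusted p = 0.785). The summed FPKM of the 3 receptors was 74.7 and 76.3 in NC and 69.0 and 72.7 in siAirn. *Rarg* made up 44.5% and 41.0% of that sum in NC and 40.5% and 37.3% in siAirn. *Rarb* made up 37.9% and 44.1% in NC and 41.3% and 46.8% in siAirn, and *Rara* the remaining 14.9% to 18.2%. The shares overlapped between groups for *Rarb* and *Rara*, whereas the lower NC share of *Rarg* was just above its higher siAirn share.

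*Rxra* dominated the retinoid X receptors, with 93.2% and 93.5% of their summed FPKM in NC and 88.1% and 94.1% in siAirn. It spans chr2:27676440-27762957 on the plus strand. It had 145.7 and 140.2 CPM in NC and 134.1 and 131.9 CPM in siAirn. Both siAirn libraries lay below both NC libraries, by a small margin. The log2 fold change was -0.10 (SE 0.06, 95% interval -0.25 to 0.04, adjusted p = 0.276). With a correction for length alone it was -0.23 (SE 0.05, adjusted p = 0.0513), and with GC content corrected for as well it was -0.06 (adjusted p = 0.491). *Rxrg*, the third gene of the family, had 1 count in NC replicate 2 and none in the other libraries.

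*Rxrb* (chr17:34031812-34038399, plus strand) was the only member whose estimate lay above 0. It had 4.84 and 4.42 CPM in NC and 8.57 and 3.84 CPM in siAirn. The single high value was siAirn replicate 1, and siAirn replicate 2 was the lowest of the 4. On the log2 scale the change was 0.42 (SE 0.36, 95% interval -0.42 to 1.27, adjusted p = 0.440). Without siAirn replicate 1 it was -0.27 (adjusted p = 0.545), so the direction rested on that library. Without siAirn replicate 2 it was 0.89 (adjusted p = 0.0242), a fit that sets siAirn replicate 1 alone against NC.

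Set beside the DR5 search, the members with an element, *Rarb* and *Cyp26a1*, had fitted changes of -0.01 and -0.11. The members without one in their windows ranged from -0.50 for *Cyp26b1* to 0.42 for *Rxrb*. With 2 members on one side, no comparison was made.

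The wider pathway was then described with 9 lists holding 93 genes, of which 92 were in the table and 71 passed the filter. At an adjusted p under 0.05, 16 of the 71 differed (22.5%), 9 higher and 7 lower in siAirn, beside 8.27% higher and 8.56% lower over all genes. At the stated threshold of the study 9 differed, 5 higher and 4 lower, beside 5.25% of all genes that passed it upwards. The median log2 fold change of the 71 was -0.05. Without the 9 members, 14 of 62 genes passed the adjusted threshold and the median was 0.00. When either NC library was left out, no pathway gene had an adjusted p under 0.05 in edgeR, in fits that called 40 and 0 genes over the whole table, while 23 and 21 pathway genes had an unadjusted p under 0.05. When GC content and length were corrected for, 8 were past the adjusted threshold, and 7 of these were among the 16.

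**Figure D3:**
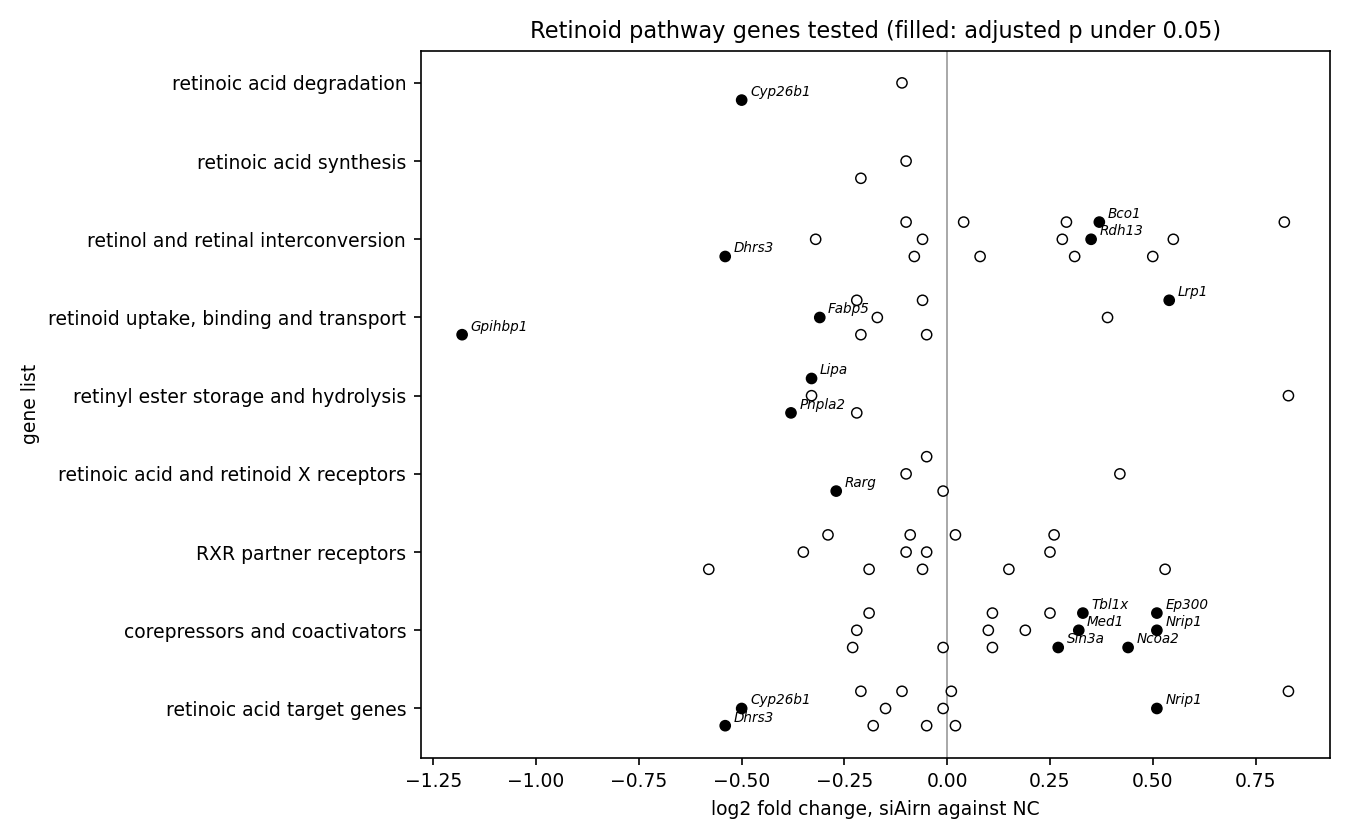
Log2 fold change of siAirn against NC for each tested gene of the 9 pathway lists, filled where the adjusted p is under 0.05 (points are spread vertically for legibility, and a gene in 2 lists appears in each). All 6 filled points among corepressors and coactivators lie above 0, and *Gpihbp1* has the lowest value, -1.18.

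In the interconversion of retinol and retinaldehyde, 1 gene fell and 2 rose among the 15 tested, with a list median of 0.28. Over all genes tested, 8.56% were called lower and 8.27% higher. *Dhrs3*, which returns retinaldehyde to retinol and had the highest mean FPKM of the list, had 352.1 and 326.9 CPM in NC and 244.7 and 220.8 CPM in siAirn. Both siAirn libraries were well below both NC libraries, with a log2 fold change of -0.54 (SE 0.08, adjusted p = 0.00906), and -0.43 (adjusted p = 0.0301) when GC content and length were corrected for. *Bco1*, which cleaves beta-carotene to retinaldehyde, rose from 90.4 and 89.5 CPM to 106.5 and 125.5 CPM (log2 fold change 0.37, adjusted p = 0.0333). *Rdh13*, a dehydrogenase of the retinol dehydrogenase family found in mitochondria, rose by 0.35 on the log2 scale (adjusted p = 0.0417). *Rdh10*, the main enzyme that oxidises retinol to retinaldehyde in the embryo, had 15.5 and 17.2 CPM in NC and 15.0 and 19.4 CPM in siAirn (adjusted p = 0.754).

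Among 9 tested genes of uptake, binding and transport, 2 fell and 1 rose, beside 8.56% and 8.27% of all genes. The list median was -0.17. *Gpihbp1*, which holds lipoprotein lipase on capillary endothelium, had 170.1 and 170.9 CPM in NC and 84.3 and 66.4 CPM in siAirn. It had the highest mean FPKM of the list, and its log2 fold change of -1.18 (SE 0.11, adjusted p = 0.00496) had the largest size among the 71. *Fabp5*, a fatty acid binding protein that can also carry retinoic acid, fell by 0.31 on the log2 scale (adjusted p = 0.0336). *Lrp1*, an endocytic receptor that takes up chylomicron remnants, rose by 0.54 (adjusted p = 0.0277). With GC content and length corrected for, *Gpihbp1* was still past the threshold (adjusted p = 0.0103), and *Fabp5* (-0.29, adjusted p = 0.0572) and *Lrp1* (0.39, adjusted p = 0.0923) were not. *Stra6*, the receptor for retinol binding protein and a known target of retinoic acid, was scarce, with 8 and 7 counts in NC and 1 count in each siAirn library. It did not pass the filter, and its ratio of siAirn to NC was 0.131 with an exact 95% interval of 0.0145 to 0.564, which covers counting error only. *Stra6* is named here after its values were seen.

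Of 5 tested genes of retinyl ester storage and hydrolysis, 2 fell, beside 8.56% of all genes tested. *Pnpla2*, a lipase of lipid droplets with the highest mean FPKM of this list, fell by 0.38 on the log2 scale (adjusted p = 0.0140). *Lipa*, the acid lipase of lysosomes, fell by 0.33 (adjusted p = 0.0258). The same correction left *Pnpla2* at -0.23 (adjusted p = 0.0646), no longer past the threshold, and *Lipa* at -0.41 (adjusted p = 0.0240). *Lrat*, which esterifies retinol and is a marker of stellate cells, had 3.91 and 7.68 CPM in NC and 8.63 and 12.1 CPM in siAirn. Its log2 fold change of 0.83 passed the stated threshold of the study but not the adjusted one (adjusted p = 0.111).

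None of 13 tested partner receptors of RXR passed the adjusted threshold in edgeR or in DESeq2, beside 16.8% of all genes in edgeR. Of the 13, 4 had an unadjusted p under 0.05 in edgeR. *Nr1h2*, a liver X receptor with the highest mean FPKM of the list, had a log2 fold change of -0.05 (adjusted p = 0.616). *Pparg*, the regulator of fat storage, had -0.58 (adjusted p = 0.0877), and *Nr4a2*, an orphan receptor induced early after stimulation, had 0.53 (adjusted p = 0.0723). Both passed only the stated threshold of the study.

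Of 15 corepressors and coactivators, 6 rose, none fell and 9 did not pass the adjusted threshold. Over all genes tested, 8.27% rose past it and 8.56% fell. Within the list, estimates lay above 0 for 11 and below 0 for 4, with a median of 0.19. *Nrip1*, a corepressor that binds liganded receptors and is itself a target of retinoic acid, rose from 73.1 CPM in each NC library to 102.8 and 104.7 CPM. Its log2 fold change was 0.51 (SE 0.06, adjusted p = 0.00683). The acetyltransferase *Ep300* rose by the same 0.51 (adjusted p = 0.00932), and the coactivator *Ncoa2* by 0.44 (adjusted p = 0.0114). *Tbl1x* and *Sin3a*, parts of corepressor complexes, rose by 0.33 and 0.27 (adjusted p = 0.0202 and 0.0330), and the Mediator subunit *Med1* by 0.32 (adjusted p = 0.0286). With GC content and length corrected for, *Nrip1* and *Ep300* remained past the threshold (0.25 and 0.33 on the log2 scale) and the other 4 did not. *Carm1*, a methyltransferase with the highest mean FPKM of the list, had -0.19 (adjusted p = 0.0687).

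Of 12 tested target genes of retinoic acid, which include *Cyp26b1*, 2 fell, 1 rose and 9 did not pass the adjusted threshold. Over all genes tested, 8.56% fell past it and 8.27% rose. The median of the list was -0.08. The target genes that fell were *Cyp26b1* and *Dhrs3*, and the target gene that rose was *Nrip1*. *Cyp26a1* and *Rarb* are in this list as well. *Tgm2*, a transglutaminase, had 773.0 and 875.6 CPM in NC and 675.5 and 778.6 CPM in siAirn (adjusted p = 0.214).

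Markers of several cell types differed between the groups in the same libraries. All 12 tested LSEC markers had estimates below 0, beside 49.9% of all genes tested, with a median of -0.60. Of the 12, 10 passed the adjusted threshold, beside 8.56% of all genes that were called lower and 8.27% called higher. The summed level of the LSEC markers was 3861.8 and 3910.1 CPM in NC and 2736.1 and 2478.2 CPM in siAirn. Of 12 pan-endothelial markers, 7 fell and none rose, with a median of -0.43 and summed levels of 11982.9 and 11310.3 CPM in NC and 8852.3 and 7694.4 CPM in siAirn. The change of *Cyp26b1* (-0.50) lay between these medians. *Pecam1* fell by 0.53 and the junction protein *Cdh5* by 0.58. The 5 pan-endothelial markers not past the adjusted threshold included *Kdr*, the receptor VEGFR2, with a log2 fold change of 0.02. The others were *Flt1* (-0.03), *Tek* (-0.05), *Ptprb* (-0.14) and *Emcn* (-0.29). In bulk RNA, fewer cells of a type and less RNA per cell cannot be told apart.

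Stellate cell and fibroblast markers went the other way, with 4 of 16 higher and none lower, beside 8.27% and 8.56% of all genes. The summed level of these markers was 1804.3 and 2183.5 CPM in NC and 2100.4 and 2718.0 CPM in siAirn, so the groups overlapped in the sum. All 11 tested hepatocyte markers had estimates above 0, with a median of 0.39, whereas 49.9% of all genes tested lay below 0. Of the 11, 1 (*Apoa1*) rose past the adjusted threshold, beside 8.27% of all genes. The sum, most of it *Alb*, was higher in both siAirn libraries. Of 11 tested Kupffer cell and macrophage markers, 7 fell, beside 8.56% of all genes tested. The sum of that list went from 243.2 and 310.2 CPM in NC to 185.9 and 156.2 CPM in siAirn. Cholangiocyte markers (30.6 to 34.9 CPM summed) and mesothelial markers (10.7 to 15.3 CPM) were low in every library, and none of the 12 tested passed the adjusted threshold in edgeR or in DESeq2, while 1 in each list, *Krt19* and *Upk3b*, had an unadjusted p under 0.05 in edgeR. No marker in the table was at 0 in all 4 libraries. *Timd4*, a marker of resident Kupffer cells, was at 0 in 1 library of each group and at 2 and 3 counts in the other 2. The part of these shifts in the changes of *Cyp26b1*, *Rarg*, *Dhrs3*, *Gpihbp1* and *Lrat* was not tested.

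**Figure D4:**
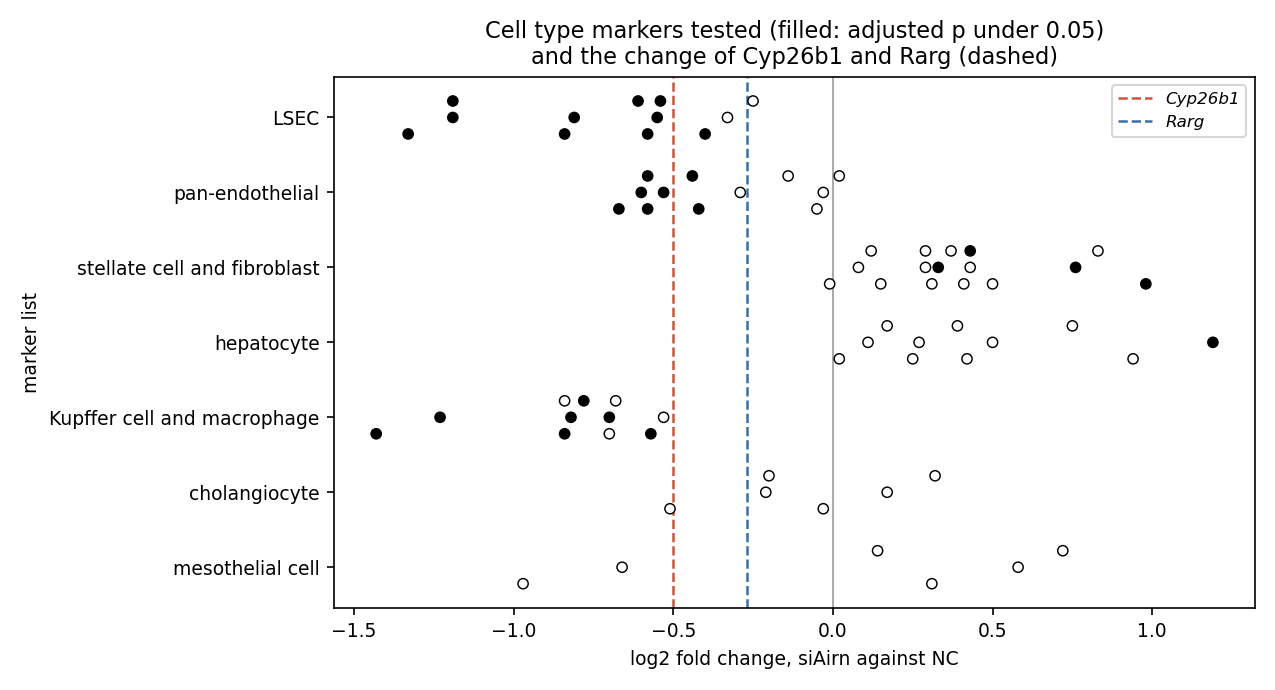
Log2 fold change of siAirn against NC for each tested marker of 7 cell types, filled where the adjusted p is under 0.05, with dashed lines at the values of *Cyp26b1* (-0.50) and *Rarg* (-0.27). All LSEC points lie below 0, and 15 of 16 stellate cell and fibroblast points lie above 0.

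**Figure D5:**
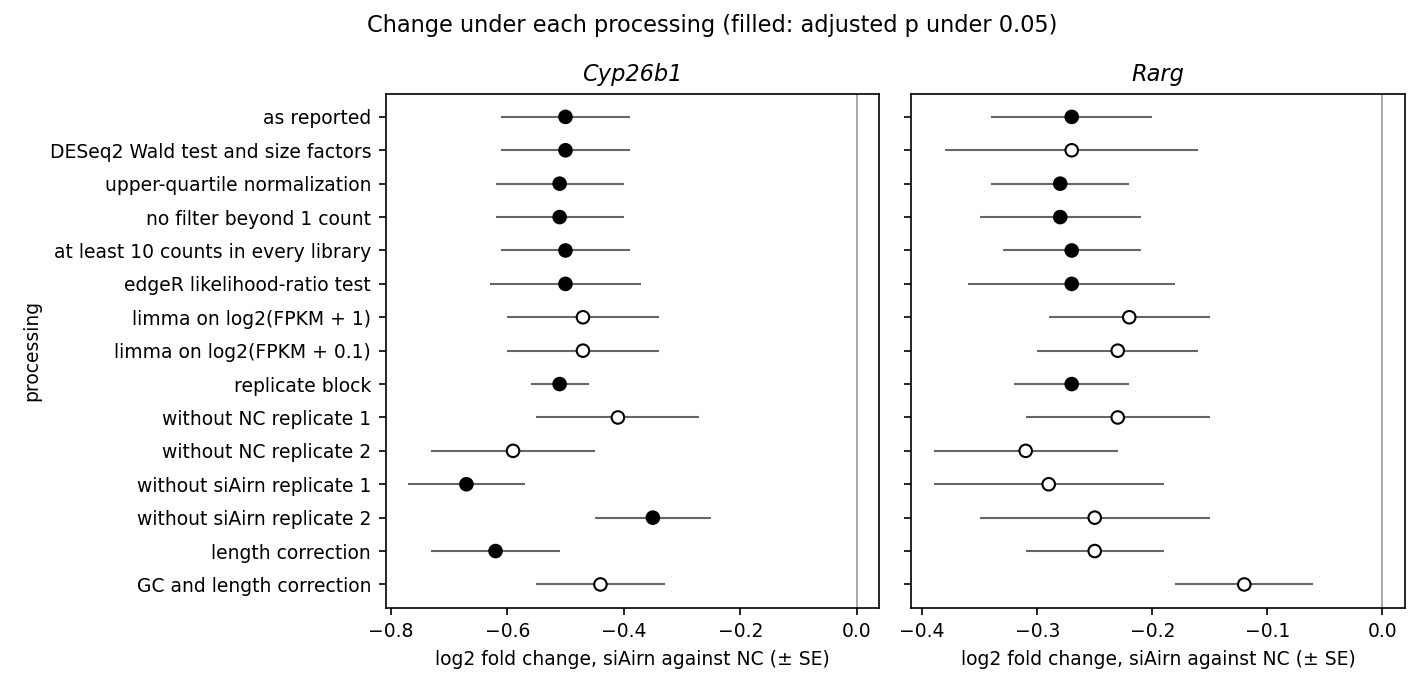
Log2 fold change of *Cyp26b1* and *Rarg* with its SE under the reported processing and 14 others, filled where the adjusted p is under 0.05. Both genes stay below 0 throughout, and *Cyp26b1* has a filled point for 9 of the 14 others and *Rarg* for 5.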

How the data were processed

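RNA of 2 NC and 2 siAirn libraries was sequenced by the submitters as single-end 50-base reads. The submitters' processing notes name BWA, Bowtie2 and RSEM without roles, and the build hg19, a human build, for these mouse samples. The counting's use of strand is not given in the sources used here. The deposited estimated counts are not normalized, and 76.5% to 76.8% of them per library are exactly whole, over all 18373 genes with those at 0 included. The second value per gene is read as FPKM computed by the authors. The authors' group means were not used.

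Counts were rounded and fitted in R 4.3.3 with edgeR 4.0.16 (TMM factors 0.985 to 1.02, filterByExpr, quasi-likelihood test, no covariate), with Benjamini-Hochberg adjustment over 13628 genes. CPM are TMM-scaled. SE are implied by the F statistic. Alternatives used DESeq2 1.42.0, limma 3.58.1 (mean FPKM of at least 1), edgeR's likelihood-ratio test, other normalization and filters, a replicate block, leaving out each library, and splines on length or on length and GC content (94.3% of tested genes). The fits were also run on simulated data. The changes simulated were larger than those of the members, so that run does not vouch for calls of the members' size. Members and gene lists were chosen with earlier results of these data known. Named genes are the 9 members, pathway genes past either threshold, the gene with the highest mean FPKM in each pathway list, the 5 genes most like *Cyp26b1*, and *Airn*. Other genes named in the text, among them *Rdh10*, *Top2b* and markers, are given for context. Exon overlap and gene spans are from GENCODE M21 (GRCm38), promoter windows from RefSeq, where all 9 symbols matched. Of the symbols listed, *Hoxb1* and *Clec4m* had no match in the table.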

Additional observations from a re-analysis of the deposited data

How the results depend on the processing

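Fits without NC replicate 1 or 2 called 40 and 0 genes in the whole table, so the absence of calls on these genes there says nothing about them. Leaving out either siAirn library ended the call on *Rarg* and not that on *Cyp26b1*. The number of members past the adjusted threshold was 2 as reported, 1 by DESeq2 and with the length correction, and 0 by limma with either pseudocount and with the GC content and length correction, where 2, 2 and 1 members had an unadjusted p under 0.05. Leaving out 1 library gave 0 to 2, on the assumption that the lone library varies like the other group. At the stated threshold of the study it was 1, but 0 by limma with either pseudocount and with the GC content and length correction, and 0 to 1 without 1 library. For pathway genes the adjusted count was 16, against 10 by limma on log2(FPKM + 1), 10 with the length correction, 8 with the GC content and length correction and 0 to 16 without 1 library. At the stated threshold it was 9, against 5, 4 and 4 in the same order and 5 to 9 without 1 library. Over all genes 2294 were called, 1284 with the length correction, 1027 with the GC content and length correction, 1743 and 1747 by limma, and 0 to 2410 without 1 library.

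The estimates of all members but *Cyp26b1*, *Rarg* and *Rxra* changed sign in some alternative. *Cyp26a1* was 0.01 with the length correction, 0.06 with GC content and length, and -0.32 to 0.07 without 1 library. *Rara* was 0.09 with GC content and length and -0.16 to 0.07 without 1 library. *Rarb* was 0.01 by limma with either pseudocount and -0.15 to 0.12 without 1 library. Without 1 library, *Aldh1a1* ranged from -0.42 to 0.30, *Aldh1a2* from -0.84 to 0.65 and *Rxrb* from -0.27 to 0.89. The cause was not tested. *Cyp26b1*, *Rarg* and *Rxra* kept their sign in every alternative.

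The labels number the replicates but give no shared batch. Deviations of same-numbered libraries had a Pearson correlation of 0.233 and a Spearman correlation of 0.306 across 13628 genes, with 2 pairs. With the number as a block, 33 pathway genes and 4841 genes in all were past the adjusted threshold, and 2 members. At this depth *Aldh1a2*, with 7 to 18 counts, allows no firm statement.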
